A study of Mus musculus with 10 samples.

Results

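The 10 genes described here are products that fat cells are known for: Adipoq, Lep, Retn, Cfd, Plin1, Cidec, Lipe, Car3, Fabp4 and Pparg. They were chosen by name from a list of fat cell genes, without a threshold on their values, and are 10 of the 47069 genes in the count table. All 10 passed the filter on low counts that left 16179 genes for testing, Lep only through the DMBA+TAM libraries, where it was high.

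White fat cells store triglyceride in a single large droplet, and release fatty acids from it when hormones such as adrenaline signal that fuel is needed. Droplet coat proteins guard the store, lipases open it, carrier proteins move the fatty acids, and the nuclear receptor PPARγ switches on much of this program when a precursor becomes a fat cell. The same cells secrete hormones that report the size of the store to the brain, the liver and other tissues. In the gut, fat cells lie outside the epithelium, in the mesentery and the outer layers of the wall, while the absorptive cells of the epithelium handle dietary fat with a partly overlapping set of genes.

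RNA-seq was performed on 10 libraries of mouse intestinal organoids, cultures grown in Matrigel with Noggin, EGF and R-spondin-1 for 50 days, 2 libraries in each of 5 groups. The strain label is C57BL/6, and per the methods of the study the organoids came from mice with Lgr5-EGFP-CreERT2 and floxed Ppp2r1a, the gene of a scaffold subunit of the phosphatase PP2A. The Cre acts after tamoxifen (TAM), and only in cells that express the stem cell gene Lgr5. All groups share this medium and culture time. The groups were control (saline), DMBA (a carcinogen; labelled Long), TAM short, TAM long (both labelled as dosage-sensitive TAM, with the meaning of short and long not given) and DMBA+TAM. The library titles are NS for control, NL for DMBA, DSS_S for TAM short, DSS_L for TAM long and Lgr5 for DMBA+TAM, and no source used here explains them. Whatever the S and L stand for, control and TAM short share the S, DMBA and TAM long share the L, and a treatment that differs from control in this letter cannot be told apart from it. The labels do not say whether the 2 libraries of a group came from separate cultures or animals, so p-values measure only the spread between these samples.

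The libraries labelled DMBA+TAM stood apart from the other 8 in measures other than fat cell genes. They held 1592366 and 1915270 counts, against 8828247 to 10923673 elsewhere. The level of Ppp2r1a was 131 ± 2.63 normalized CPM in DMBA+TAM (CPM on library totals scaled by TMM, mean ± SD of the pair, n = 2), beside 126 ± 4.55 for control, 160 ± 10.2 for DMBA, 163 ± 8.07 for TAM long and 139 ± 11.8 for TAM short. Its counts sum all exons, so they do not check the deletion. A list of 10 epithelial genes summed to 34.8 and 21.1 normalized CPM in DMBA+TAM 1 and 2, against 14760 to 24501 elsewhere, and 6 of its 10 genes, Epcam and Vil1 among them, had at most 3 counts in each DMBA+TAM library. The defining markers of the labelled tissue were thus nearly absent from these 2 libraries, and group names below stand for the labels. DMBA+TAM 2 also held 8558 normalized CPM of 10 skeletal muscle genes, against 7.9 in DMBA+TAM 1 and 8.58 to 22.7 elsewhere. Bulk counts cannot tell fewer cells of a type from less RNA per cell, here or in any result below.

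Together the 10 genes took 0.789% and 0.451% of all counts in the 2 DMBA+TAM libraries, and 0.00945% to 0.048% in the other 8. Against control, 7 of the 10 were higher in DMBA+TAM and 0 lower by edgeR's quasi-likelihood test at an adjusted p of 0.05, where 29% of all genes tested were higher and 35.3% lower. Lep had to differ, since it passed the filter through DMBA+TAM alone, and without it the count was 6 of 9. The 7 were the 4 secreted products Adipoq, Lep, Retn and Cfd, the droplet coat gene Plin1, the enzyme gene Car3 and the carrier gene Fabp4. Pparg, Lipe and Cidec did not pass. The median log2 fold change of the 10 was 6.2, and 6.12 without Lep, beside -0.17 over all genes tested.

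**Figure D1:**
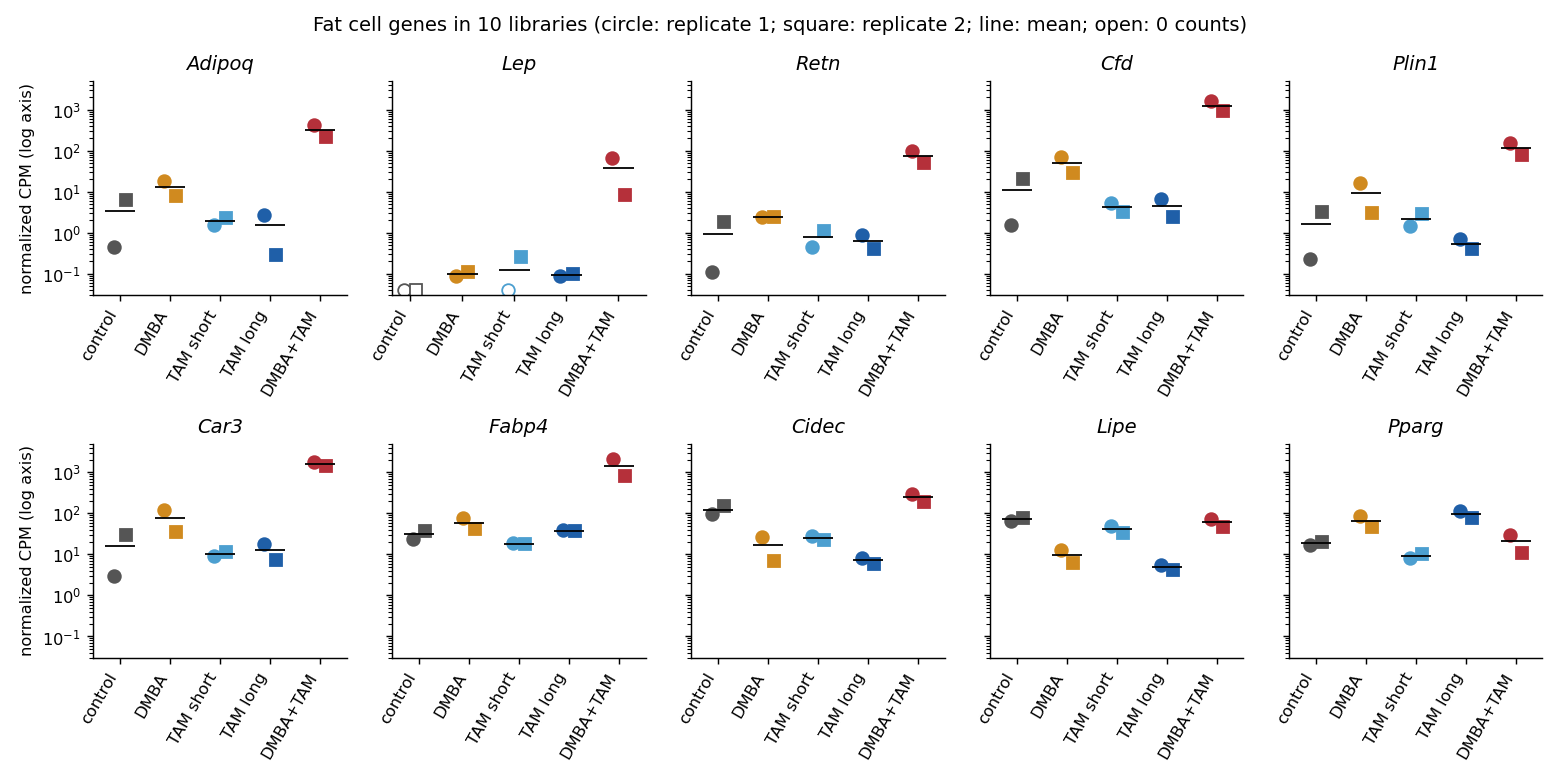
Normalized CPM of each of the 10 genes in each library, on a log axis; circles are replicate 1, squares replicate 2, black lines the mean of 2 libraries, and open symbols libraries with 0 counts. In 8 panels both DMBA+TAM libraries lie above the other 8, and in the panels of Lipe and Pparg they do not: Pparg peaks in TAM long, at 117 and 76.9. The 8 panels include Lep, which passed the filter on low counts only through DMBA+TAM. The share of all genes with this pattern was not counted, and 29% of all genes tested were called higher in DMBA+TAM than in control.

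Adipoq encodes adiponectin, a hormone that fat cells secrete and that raises insulin sensitivity. Adiponectin counts were 4 and 52 in control, 205 and 71 in DMBA, 14 and 18 in TAM short, 32 and 3 in TAM long, and 822 and 480 in DMBA+TAM. In normalized CPM that was 0.451 and 6.25, 18.3 and 7.96, 1.58 and 2.27, 2.75 and 0.294, and 433 and 211. Both DMBA+TAM libraries were far above all others although they were the shallowest, and the control pair spanned a 13.8-fold range. The log2 fold change of DMBA+TAM against control was 6.6 (SE 0.85, adjusted p = 7.47e-05 by edgeR), and without control replicate 2, the control library with the higher level, it was 9.4. In GRCm38 the gene spans chr16:23146536-23158028, plus strand. The last 100 bases before its RefSeq start (GRCm38.p6, chr16:23146436-23146535, plus strand) are shown because Adipoq is the gene to which reads of the other members are set below; capitals mark CCAAT boxes, read as CCAAT on the plus strand or ATTGG for the minus strand:

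Adipoq promoter: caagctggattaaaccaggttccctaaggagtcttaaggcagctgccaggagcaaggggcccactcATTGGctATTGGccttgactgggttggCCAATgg

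The 3 boxes begin 34, 27 and 7 bases before the start. CCAAT on either strand occurs in the 250 bases before the start in 33.8% of all 32851 RefSeq start windows, so a single match is common.

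Lep encodes leptin, the hormone that reports fat stores to the brain. It had 128 and 19 counts in DMBA+TAM and at most 2 in any other library: 0 and 0 in control, 1 and 1 in DMBA, 0 and 2 in TAM short, and 1 and 1 in TAM long. Leptin transcripts were thus above the counting floor of 3 counts only in the DMBA+TAM libraries, which differed 8.07-fold from each other, at 67.4 and 8.35 normalized CPM. Against a floor of 3 counts per library the level in DMBA+TAM was at least 108-fold higher than in control. No test is given for Lep, which was open to testing only because of its counts in DMBA+TAM. DMBA+TAM 1 alone gives at least 193-fold and DMBA+TAM 2 alone at least 23.9-fold. The other libraries were the deeper ones: there 3 counts are worth 0.258 to 0.378 normalized CPM, against 1.58 and 1.32 in DMBA+TAM. The 100 bases before its RefSeq start (GRCm38.p6, chr6:29060121-29060220, plus strand) are shown because Lep, of the 8 members with a RefSeq start window, was the only one with a C/EBP palindrome, in capitals:

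Lep promoter: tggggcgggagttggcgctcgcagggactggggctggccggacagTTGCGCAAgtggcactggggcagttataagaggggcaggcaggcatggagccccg

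The palindrome TTGCGCAA begins 55 bases before the start and occurs in 0.164% of all windows. Its letters are a description of the sequence, and binding was not measured. Among the genes of C/EBP factors, Cebpa rose from 46.5 ± 3.06 normalized CPM in control to 143 ± 53.8 in DMBA+TAM (log2 fold change 1.62, adjusted p = 0.000404 by edgeR), and Cebpb from 13 ± 1.32 to 30.2 ± 0.464 (1.22, adjusted p = 0.000161). In TAM short, where Lep had 0 and 2 counts, Cebpa was at 82.6 ± 5.77 and Cebpb at 11.4 ± 1.04. The part of either factor in the level of Lep was not tested.

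Retn encodes resistin, a hormone of mouse fat cells. Its counts were 1 and 15 in control, 27 and 22 in DMBA, 4 and 9 in TAM short, 10 and 4 in TAM long, and 185 and 115 in DMBA+TAM. The log2 fold change of DMBA+TAM against control was 6.27 (SE 0.66, adjusted p = 1.76e-05 by edgeR), and 9.13 without control replicate 2. Resistin was scarce outside DMBA+TAM, where no library exceeded 2.47 normalized CPM.

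Cfd encodes adipsin, or complement factor D, a protease of the complement system that mouse fat cells secrete in quantity. Counts of 14 and 166 were found in control, 790 and 262 in DMBA, 47 and 26 in TAM short, 78 and 25 in TAM long, and 3035 and 2121 in DMBA+TAM. Against control the log2 fold change of adipsin was 6.89 (SE 0.95, adjusted p = 0.000128 by edgeR), and 9.6 without control replicate 2. Per length, adipsin had the highest mean FPKM of the 10 in DMBA+TAM (fragments scaled by gene length and library total). The mean was 1632 ± 612 FPKM (SD, n = 2), rank 25 of 47069 genes by mean FPKM. In DMBA+TAM 2 alone Car3 was above it, at 1320 against 1200 FPKM.

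Plin1 encodes perilipin 1, which coats the droplet of fat cells and holds lipases back until hormones signal. Its counts were 2 and 26 in control, 179 and 27 in DMBA, 13 and 23 in TAM short, 8 and 4 in TAM long, and 292 and 177 in DMBA+TAM. The log2 fold change in DMBA+TAM against control was 6.12 (SE 0.89, adjusted p = 0.000176 by edgeR), and 8.87 without control replicate 2. Here too DMBA+TAM stood above every other library, with 77.8 normalized CPM in its lower replicate against 16 in DMBA 1, the next library.

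For Adipoq, Retn, Cfd, Plin1 and Car3 the control pair set the size of the change. Without control replicate 1 the log2 fold changes of DMBA+TAM against control ran from 5.17 (Plin1) to 5.96 (Cfd), and each remained past the threshold without any 1 of the 4 libraries. Leaving out DMBA+TAM replicate 1 gave 5.97 for Adipoq and 5.52 for Plin1.

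Car3 encodes carbonic anhydrase 3, an enzyme abundant in fat cells and also in slow skeletal muscle. Counts were 27 and 248 in control, 1327 and 313 in DMBA, 82 and 89 in TAM short, 212 and 73 in TAM long, and 3359 and 3270 in DMBA+TAM. Against control the log2 fold change of Car3 was 6.62 (SE 0.98, adjusted p = 0.000205 by edgeR) and 9 without control replicate 2. Skeletal muscle genes were abundant in DMBA+TAM 2 only, and without that library the log2 fold change of Car3 was 6.73. The level was 1769 normalized CPM in DMBA+TAM 1, where the skeletal muscle genes summed to 7.9, and 1438 in DMBA+TAM 2. The part of muscle in the level of DMBA+TAM 2 was not tested.

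Fabp4 encodes the fatty acid carrier of fat cells, which endothelial cells and macrophages also make. Fabp4 was counted 211 and 316 times in control, 879 and 363 in DMBA, 169 and 141 in TAM short, 447 and 381 in TAM long, and 3981 and 1882 in DMBA+TAM. The log2 fold change in DMBA+TAM against control was 5.56 (SE 0.5, adjusted p = 5.82e-06 by edgeR), and 4.72 without DMBA+TAM replicate 1, the library with more of it. Endothelial and macrophage genes moved with it. The 10 endothelial genes summed to 851 and 839 normalized CPM in DMBA+TAM and 93.9 to 168 elsewhere, with none at 3 counts or fewer in both DMBA+TAM libraries, and 9 of 10 passed as higher against control. The 10 macrophage genes summed to 7862 and 7426 against 329 to 488, with 9 of 10 higher. Their part in the level of Fabp4 was not tested.

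Cidec encodes a droplet protein that joins small droplets into larger ones; enterocytes make it as well. Its counts were 876 and 1228 in control, 293 and 63 in DMBA, 247 and 178 in TAM short, 97 and 60 in TAM long, and 562 and 443 in DMBA+TAM. In normalized CPM the control pair had 98.8 and 148 and the DMBA+TAM pair 296 and 195, so the pairs did not overlap, but the log2 fold change of 0.99 (SE 0.44) had an adjusted p of 0.0742 by edgeR. Cidec passed in 6 of 12 alternative analyses. The lowest adjusted p, 1.06e-07 by edgeR, came from the fit with no filter on low counts, which often gave far smaller values than the main fit. The next lowest was 0.0017 by edgeR, with only the groups compared. With all libraries kept, the highest was 0.14, by DESeq2. Unlike the 7 genes above, it was abundant in control, at 90.7 ± 23.3 FPKM, the highest of the 10 there.

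Lipe encodes hormone-sensitive lipase, which cuts diacylglycerol in fat cells when adrenaline acts. Counts of Lipe were 571 and 650 in control, 146 and 55 in DMBA, 430 and 266 in TAM short, 65 and 42 in TAM long, and 142 and 108 in DMBA+TAM. Normalized CPM were 64.4 and 78.1 in control and 74.8 and 47.5 in DMBA+TAM, which overlapped. The log2 fold change was -0.23 (SE 0.33, adjusted p = 0.565 by edgeR), and its sign turned in 5 of 12 alternative analyses. Exons of Lipe overlap those of 4732471J01Rik on the other strand by 918 bases, and the kit was not stated to keep strand, so reads of the overlap cannot be told apart. That gene had 0 to 106 counts, most in DMBA and TAM long, where Lipe was lowest.

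Pparg encodes PPARγ, the nuclear receptor that drives fat cell differentiation and that epithelial cells of the colon also express. Its counts were 154 and 168 in control, 961 and 417 in DMBA, 73 and 82 in TAM short, 1354 and 784 in TAM long, and 58 and 25 in DMBA+TAM. The normalized CPM in DMBA+TAM, 30.6 and 11, lay on either side of 17.4 and 20.2 in control. The log2 fold change was 0.11 (SE 0.45, adjusted p = 0.843 by edgeR), between -0.8 and 0.68 over the 12 alternatives, with a negative sign without DMBA+TAM replicate 1 or without control replicate 1. The receptor gene was therefore not among those whose level in DMBA+TAM exceeded that in every other library.

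Pparg has several starts, and the counts, which sum all exons of a gene, do not separate them. The 100 bases before each of its 3 RefSeq starts (GRCm38.p6, chr6:115361044-115361143, chr6:115362249-115362348 and chr6:115421966-115422065, all plus strand) are shown because Pparg had the lowest correlation of the 10 with their mean over the 10 libraries (r = -0.11). Capitals mark AGGTCA, the core letters that nuclear receptors read, and CCAAT boxes (CCAAT, or ATTGG for the minus strand), which do not overlap here:

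Pparg start 1: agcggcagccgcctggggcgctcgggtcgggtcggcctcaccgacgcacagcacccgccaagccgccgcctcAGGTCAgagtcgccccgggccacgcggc

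Pparg start 2: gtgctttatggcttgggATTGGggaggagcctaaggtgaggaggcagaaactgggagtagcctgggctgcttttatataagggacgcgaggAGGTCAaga

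Pparg start 3: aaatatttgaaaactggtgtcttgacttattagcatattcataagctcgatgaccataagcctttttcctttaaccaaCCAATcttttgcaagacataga

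AGGTCA begins 28 bases before start 1 and 9 bases before start 2, and occurs on either strand in 14% of all windows. RefSeq windows of 250 bases were found for 8 of the 10 members, 12 windows in all, and these 2 of Pparg were the only ones with AGGTCA.

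Levels were compared between genes per length. In DMBA+TAM the order by mean FPKM was Cfd (1632), Car3 (1476), Fabp4 (679), Adipoq (419), Cidec (255), Plin1 (95.5), Retn (87.5), Lipe (36.1), Lep (24.5) and Pparg (21.2). The length behind the FPKM is not that listed in the table: for Fabp4 it was 2564 bases beside 4231 listed, and for Cfd 923 in both. Neighbours in this order overlapped in the range of their 2 libraries, except Car3 and Fabp4, Cidec and Plin1, and Retn and Lipe. In control the order began with Cidec (90.7), Lipe (29.9) and Pparg (13.6), the 3 that did not pass in DMBA+TAM, and ended with Plin1 (0.968), Retn (0.793) and Lep (0).

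The libraries labelled DMBA (titled NL) were compared with those labelled control (titled NS), so the contrast also differs in the letter of the title. Of the 10 genes, 4 were higher (24.5% of all genes tested were) and 2 lower (23.3%), with a median log2 fold change of 1.92 beside 0.07 over all genes. Pparg rose by 1.82 on the log2 scale (SE 0.38, adjusted p = 0.00342 by edgeR), and Lipe and Cidec fell by 2.87 each (adjusted p = 0.000124 and 0.00094). Pparg, Lipe and Cidec kept their direction and their call in all 12 alternatives, with values for Cidec of -4.15 without DMBA replicate 1 and -2.25 without DMBA replicate 2, and for Lipe of -3.55 without DMBA replicate 1. The 10 genes of fat handling in enterocytes moved with Lipe and Cidec: 0 were higher and 10 lower in DMBA against control, and their summed level was 872 and 433 normalized CPM, against 37442 and 41176 in control. Their part in the fall of Lipe and Cidec was not tested.

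The other 3 calls were weaker. Car3 (log2 fold change 2.23, adjusted p = 0.0491), Plin1 (2.55, 0.0403) and Cfd (2.23, 0.0464) passed by edgeR with all libraries, and each missed the threshold with DESeq2, with only the 4 libraries compared, without control replicate 1 and without DMBA replicate 1. Plin1 also missed it by limma on log2(FPKM + 1) (adjusted p = 0.0584) and log2(FPKM + 0.1) (0.0531), and after thinning to the smallest library total (0.182). Without DMBA replicate 1 the log2 fold changes were 1.08, 0.85 and 1.43, without control replicate 1 they were 1.36, 1.62 and 1.32, and without control replicate 2 they were 4.64, 5.32 and 4.96. Control 2 and DMBA 2 lay close for all 3, at 29.8 and 35.1 normalized CPM for Car3, 3.12 and 3.03 for Plin1, and 20 and 29.4 for Cfd. Adipoq (2.01, adjusted p = 0.072 by edgeR), Retn (1.36, 0.164) and Fabp4 (0.95, 0.093) did not pass, and Lep was at or under 3 counts in both groups. They passed as higher in 5, 2 and 4 of 12 alternatives. Without control replicate 2 the log2 fold change was 4.82 for Adipoq (adjusted p = 0.0213 by edgeR) and 4.24 for Retn (0.0184), and without control replicate 1 it was 1.07 and 0.42. For Fabp4 it was 1.34 without DMBA replicate 2 (adjusted p = 0.03 by edgeR) and 0.37 without DMBA replicate 1. Of 12 genes of fat progenitors and fibroblasts, 10 were higher and 1, Dpp4, lower in DMBA against control, and of 10 smooth muscle genes 9 were higher. Their part in the levels of the members was not tested.

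The libraries labelled TAM long (titled DSS_L) were compared with control (titled NS), which again differ in the letter of the title as well as in the label. Of the 10, Pparg alone was higher (23.2% of all genes were), and Lipe and Cidec were lower (22.8% of all genes were). Pparg rose by 2.36 on the log2 scale (SE 0.38, adjusted p = 0.000833 by edgeR) to 87.5 ± 26.3 FPKM, the highest of the 10 in that group. On the same scale Lipe fell by 3.86 (adjusted p = 3.08e-05) and Cidec by 4.1 (adjusted p = 0.000184), to 4.86 ± 1.04 and 7.12 ± 1.74 normalized CPM from 71.3 ± 9.68 and 123 ± 34.5. The enterocyte genes of fat handling were again 0 higher and 10 lower, summing to 1134 and 1107 normalized CPM, and their part was not tested. The median log2 fold change of the 10 was -0.8, beside 0.05 over all genes.

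The 5 genes Adipoq, Retn, Cfd, Plin1 and Car3 did not pass in TAM long, and the sign of their log2 fold changes turned without control replicate 2. Without control replicate 1 the log2 fold change of Cfd was -2.11. With no filter on low counts Adipoq (-1.07, adjusted p = 0.00306 by edgeR), Plin1 (-1.58, 0.00372) and Cfd (-1.22, 2.94e-09) passed as lower. The fit with no filter often gave far smaller adjusted p-values at nearly the same fold. For Adipoq in DMBA+TAM against control it gave 3.59e-180 in place of 7.47e-05 by edgeR. With all libraries the log2 fold changes of the 5 genes ran from -1.55 (Plin1) to -0.35 (Car3). Without control replicate 2 they ran from 1.22 (Plin1) to 2.34 (Retn).

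In TAM short, 0 of the 10 were higher than in control (6.52% of all genes were) and 1 was lower (7.8%). Cidec fell by 2.29 on the log2 scale (SE 0.47, adjusted p = 0.0107 by edgeR), from 98.8 and 148 to 27.8 and 22.4 normalized CPM. This call was lost without control replicate 2 (-1.98, adjusted p = 0.0985), without TAM short replicate 1 (-2.46, 0.0753) and without TAM short replicate 2 (-2.14, 0.132). Pparg (-1.02, adjusted p = 0.137 by edgeR) and Lipe (-0.8, 0.124) did not pass. They passed as lower in 2 and 3 of 12 alternatives. Both did with no filter on low counts and with only the groups compared (adjusted p = 0.00207 and 0.0028 by edgeR). Lipe also did with the replicate block (0.0457). The enterocyte genes of fat handling were 0 higher and 8 lower, summing to 17774 and 13803 normalized CPM, and their part in the level of Cidec was not tested. The median of the 10 was -0.76, beside -0.04 over all genes.

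**Figure D2:**
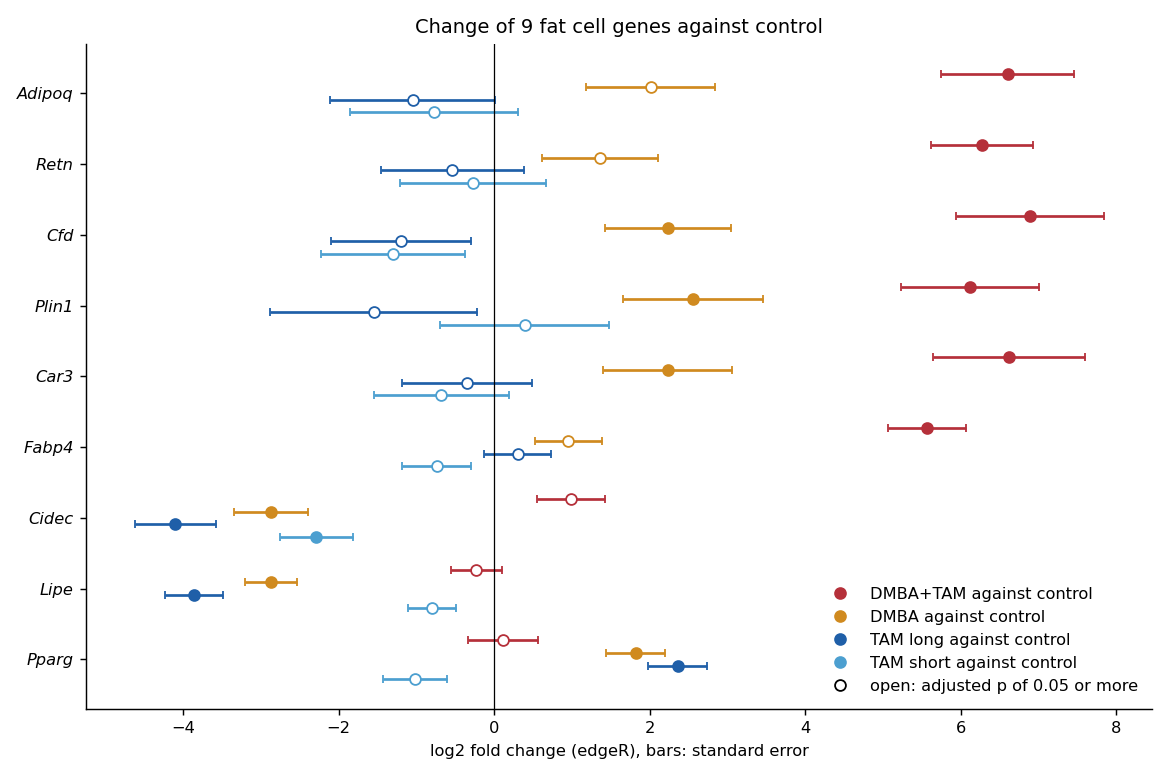
Log2 fold change against control with its standard error for 9 genes in 4 comparisons by edgeR; filled points have an adjusted p under 0.05, and Lep is left out because it had 0 counts in control. The values of DMBA+TAM lie between 5.56 and 6.89 for the upper 6 genes, and those of Lipe and Cidec in DMBA and TAM long between -4.1 and -2.87.

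DMBA+TAM was next compared with each treatment. Against DMBA 9 of the 10 genes were higher (25.2% of all genes were) and Pparg was lower (29.9%), and the same held against TAM long (25.3% higher, 29.9% lower). Against TAM short 8 were higher (29.3%) and 0 lower (33.8%); the other 2, Pparg (log2 fold change 1.13, adjusted p = 0.0608) and Lipe (0.57, 0.161), passed as higher in 9 and 5 of 12 alternatives, with adjusted p from 9.42e-06 to 0.739 and from 0.0267 to 0.719. Lep is among the higher genes in all 3 comparisons and entered them through DMBA+TAM alone. These comparisons share the 2 DMBA+TAM libraries. The medians of the log2 fold changes in these 3 comparisons, in the same order, were 4.49, 6.9 and 6.42, each beside -0.14 over all genes. Without Lep they were 4.38, 6.82 and 6.31.

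Adipoq had a log2 fold change of 4.6 against DMBA (adjusted p = 0.000466 by edgeR), 7.65 against TAM long (5.75e-05) and 7.38 against TAM short (5.71e-05). Its value against TAM long was 10 without TAM long replicate 1, which leaves the library with 3 Adipoq reads, and 6.85 without TAM long replicate 2, and against DMBA it was 5.33 without DMBA replicate 1 and 3.99 without DMBA+TAM replicate 1. Lep was at least 126-fold, 137-fold and 106-fold higher, and from DMBA+TAM 2 alone at least 27.7-fold, 30.2-fold and 23.3-fold. Lipe and Cidec, which had not passed against control, were higher than in DMBA by 2.65 (adjusted p = 0.000161) and 3.86 (0.000115), and higher than in TAM long by 3.64 (2.56e-05) and 5.1 (2.71e-05). Without DMBA replicate 1 the values against DMBA were 3.29 for Lipe and 5.11 for Cidec, and that of Cidec was 3.21 without DMBA replicate 2. Pparg was lower by 1.71 than in DMBA (adjusted p = 0.00728), though not without DMBA+TAM replicate 2 (0.0634), and lower by 2.25 than in TAM long (0.00144). Without DMBA+TAM replicate 1 the log2 fold changes of Pparg were -2.6 and -3.14, and without DMBA+TAM replicate 2 they were -1.12 and -1.66.

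The members did not vary as a single block. Across the 8 libraries other than DMBA+TAM, Adipoq, Car3, Cfd, Retn and Plin1 rose and fell together, with Pearson's r from 0.86 to 0.97 between pairs of them on log2 normalized CPM. Control 2 was 9.78-fold to 16-fold above control 1 for these 5, while it was 1.16-fold above for Pparg, 1.21-fold for Lipe, 1.49-fold for Cidec and 1.6-fold for Fabp4. Lipe and Cidec had r = 0.92 with each other and -0.05 and 0.06 with Adipoq. Pparg had r = -0.83 with Lipe, and Fabp4 lay between, with 0.62 to Adipoq and 0.82 to Pparg. These values describe 8 points that share 4 groups and, for Retn and Plin1, counts as low as 1 and 2.

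Reads of 1 gene per read of Adipoq in the same library need no scaling between libraries, and differed between the genes. Cfd gave 3.69 and 4.42 reads per Adipoq read in DMBA+TAM, 3.5 and 3.19 in control, 3.85 and 3.69 in DMBA, 3.36 and 1.44 in TAM short, and 2.44 and 8.33 in TAM long, where TAM long 2 had only 3 Adipoq reads. Apart from that library Retn ranged from 0.132 to 0.5 and Plin1 from 0.25 to 1.28. Plin1 differed beyond counting error between the 2 DMBA libraries, at 0.873 (exact 95% interval 0.711 to 1.07) and 0.38 (0.235 to 0.6), and Car3 between the 2 DMBA+TAM libraries, at 4.09 (3.79 to 4.42) and 6.81 (6.19 to 7.51).

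The ratio of Cidec was 0.684 and 0.923 in DMBA+TAM, 1.43 and 0.887 in DMBA, 219 and 23.6 in control, 17.6 and 9.89 in TAM short, and 3.03 and 20 in TAM long. Lipe had 0.173 and 0.225 reads per Adipoq read in DMBA+TAM, against 143 and 12.5 in control. Pparg had 0.0706 and 0.0521 in DMBA+TAM, against 3.23 to 261 in the other 8 libraries. Apart from TAM long 2, the ratios of Cfd, Retn and Plin1 spanned narrower ranges than those of Cidec, Lipe and Pparg.

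**Figure D3:**
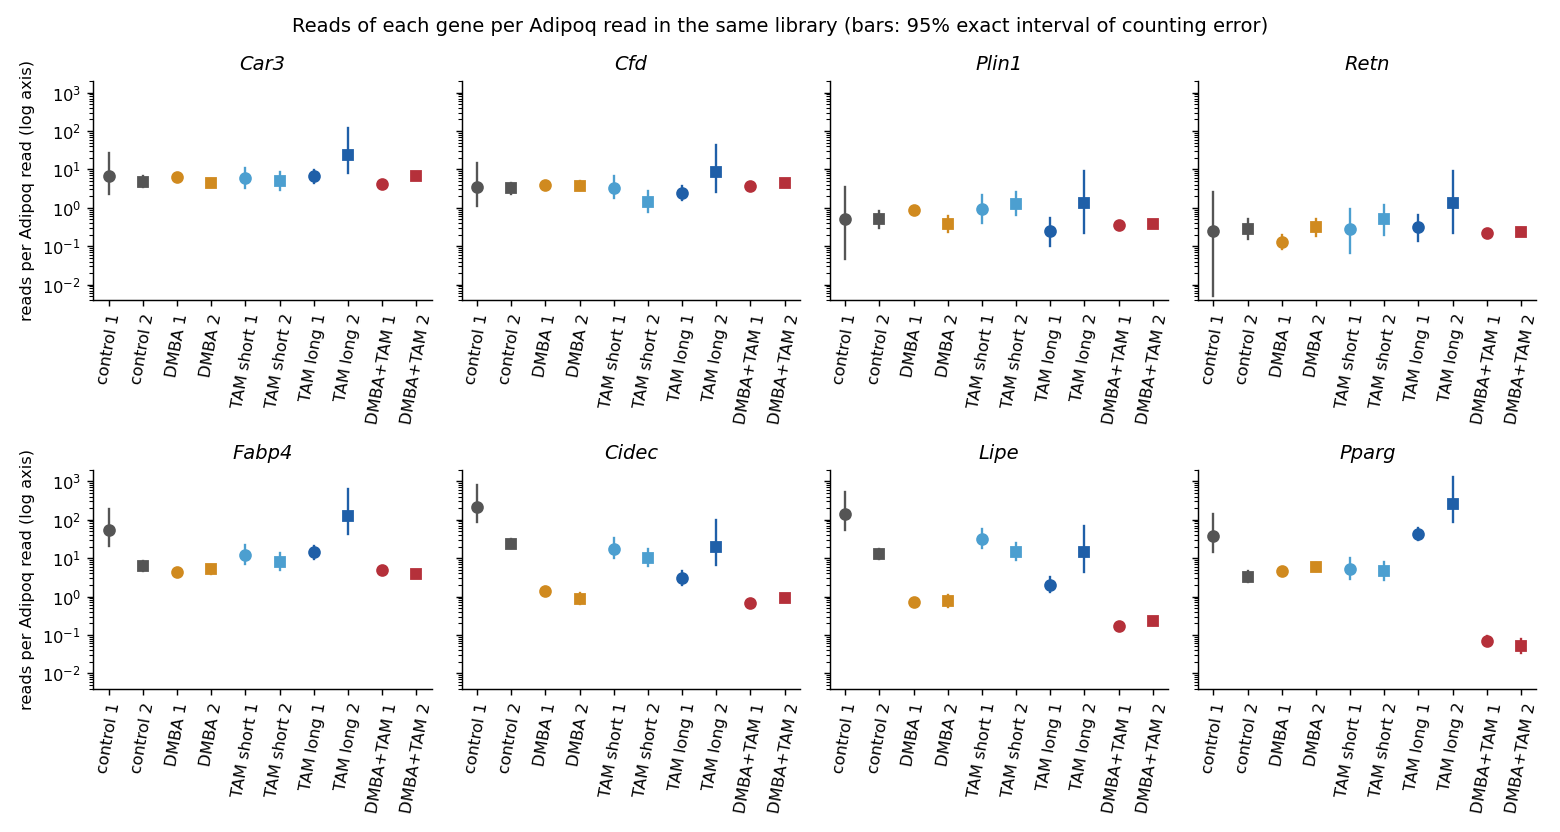
Reads of 8 genes per Adipoq read in each library on a log axis; bars are exact 95% intervals, which cover counting error only, and are wide where Adipoq had few reads (3 in TAM long 2, 4 in control 1). Apart from TAM long 2, Retn spans 0.132 to 0.5 and Plin1 0.25 to 1.28, and Pparg drops to 0.0706 and 0.0521 in DMBA+TAM.

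Genes of the same program outside the 10 were read from lists written from general knowledge. Counts in both directions are common in DMBA+TAM against control, where 29% of all genes tested were higher and 35.3% lower, with a median log2 fold change of -0.17. Of 8 genes of lipolysis tested in DMBA+TAM against control, 8 were higher and 0 lower (median log2 fold change 2.6). Among them were Mgll, the monoglyceride lipase (log2 fold change 2.99, adjusted p = 0.000119 by edgeR), and Prkar2b, the fat cell subunit of protein kinase A (3.67, 3.58e-05). Mgll was also abundant in DMBA (144 ± 94.2 normalized CPM) and TAM long (183 ± 24.9), beside 234 ± 55.6 in DMBA+TAM. Prkar2b was at 8.16 ± 2.82 in DMBA and 6.76 ± 2.37 in TAM long, beside 61.7 ± 31.9. Of 9 other secreted products, 7 were higher and 0 lower (median 3.8), such as Rarres2, which encodes chemerin (15.6 ± 0.697 to 145 ± 27.9 normalized CPM). The list includes Orm1, which had at most 4 counts in the other libraries and 34 and 26 in DMBA+TAM. Like Lep, Orm1 passed the filter only through DMBA+TAM, so it had to differ. It is part of the 7 of 9 and of their median, which were not recomputed without it. Of 8 other droplet proteins, 6 were higher and 2 lower (median 1.06): Plin4, a perilipin abundant in fat cells, rose by 4.46 (adjusted p = 4.78e-05), and Plin3, the broadly expressed perilipin, fell by 3.48 (3.07e-08).

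Of 9 genes of fatty acid synthesis, 6 were higher and 2 lower, with a median log2 fold change of 1.15. Scd1, the desaturase of fat cells, rose from 22.7 ± 23.1 to 4348 ± 2418 normalized CPM (log2 fold change 7.58, adjusted p = 2.61e-05 by edgeR), while Mlxipl fell by 4.36 and Elovl6 fell by 4.27. Of 14 genes of fat uptake and triglyceride synthesis, 9 were higher and 5 lower (median 1.45); Lpl, the lipase that fat cells place on capillaries, rose by 4.87 (adjusted p = 5.69e-05), and Dgat1, which enterocytes use to rebuild triglyceride, fell by 5.1 (2.24e-08). The 10 genes of fat handling in enterocytes were 1 higher and 9 lower. Fabp2 was at least 9944-fold lower, at a floor of 3 counts per DMBA+TAM library. For fatty acid synthesis the counts differed by comparison. In DMBA+TAM against DMBA, 3 of the 9 genes were higher (25.2% of all genes were) and 4 lower (29.9%), with a median of -0.49. Against TAM long 4 were higher (25.3%) and 3 lower (29.9%), with a median of 0.17.

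Of 8 other regulators, 4 were higher and 2 lower (median 0.7), beside 29% and 35.3% of all genes, with Nr1h3, the liver X receptor alpha, at a log2 fold change of -1.59 (adjusted p = 4.44e-05 by edgeR). Ebf2, among these 8 regulators, had 1 to 10 counts in the other libraries and 57 and 52 in DMBA+TAM. Like Lep, Ebf2 passed the filter only through DMBA+TAM, and the 4 of 8 and their median include it. Of 4 genes of thermogenic fat that could be tested, 2 were higher and 1 lower. Cox8b, among these 4, had 0 to 9 counts in the other libraries and 9 and 64 in DMBA+TAM 1 and 2. This gene passed the filter only through DMBA+TAM, and the 2 of 4 include it. Skeletal muscle genes were also abundant in DMBA+TAM 2, and their part in the level of Cox8b was not tested. Ucp1, the uncoupling protein of brown fat, had 0 counts in all 10 libraries, Elovl3 at most 1 and Cpt1b 0 to 7. Other members were present: Dio2 was at 39 and 33 normalized CPM in DMBA+TAM against 0.564 and 0.481 in control. Cox8b was at 4.74 and 28.1 against 0 and 0. Ppargc1a had a log2 fold change of -5.88 in DMBA+TAM against control (adjusted p = 4.7e-07 by edgeR). Of 5 genes of receptors for fat cell hormones, 3 were higher and 1 lower. Cdh13, which binds adiponectin, rose by 4.21 (adjusted p = 1.55e-06 by edgeR) and Lepr, the leptin receptor, by 0.98 (0.00813). Adipor2, an adiponectin receptor, was the lower one, with a log2 fold change of -1.18 (0.00055). Its level went from 386 ± 18.2 in control to 170 ± 40.3 normalized CPM in DMBA+TAM. In DMBA+TAM against DMBA, 2 of these 5 receptor genes were higher and 1 lower (median -0.08). Against TAM long 2 were higher and 2 lower (median -0.2).

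Genes of other cells that surround fat moved with the members in DMBA+TAM. The 12 genes of fat progenitors and fibroblasts summed to 26708 and 27396 normalized CPM in DMBA+TAM and 1484 to 2665 elsewhere, with 11 higher and 1 lower. The sum in control is mostly Dpp4, which epithelial cells also make: it was 1463 and 1298 in control and 30.3 and 54 in DMBA, while 10 of the 12 genes were higher in DMBA than in control (24.5% of all genes were) and 7 of 12 in TAM long (23.2%). Pi16, a marker of fibroblasts and early fat progenitors, rose from 0.41 ± 0.101 to 340 ± 75.2. Unlike the 10 genes, whose summed level was 6618 in DMBA+TAM 1 and 3799 in DMBA+TAM 2, the fibroblast, endothelial and macrophage lists were nearly equal in both libraries. The 10 smooth muscle genes were 2 higher and 5 lower in DMBA+TAM, against 9 of 10 higher in DMBA and 10 of 10 in TAM long. The 6 mesothelial genes were 1 higher and 5 lower, with 4, Msln among them, at 3 counts or fewer. The part of any of these cells in the levels of the 10 genes was not tested.

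**Figure D4:**
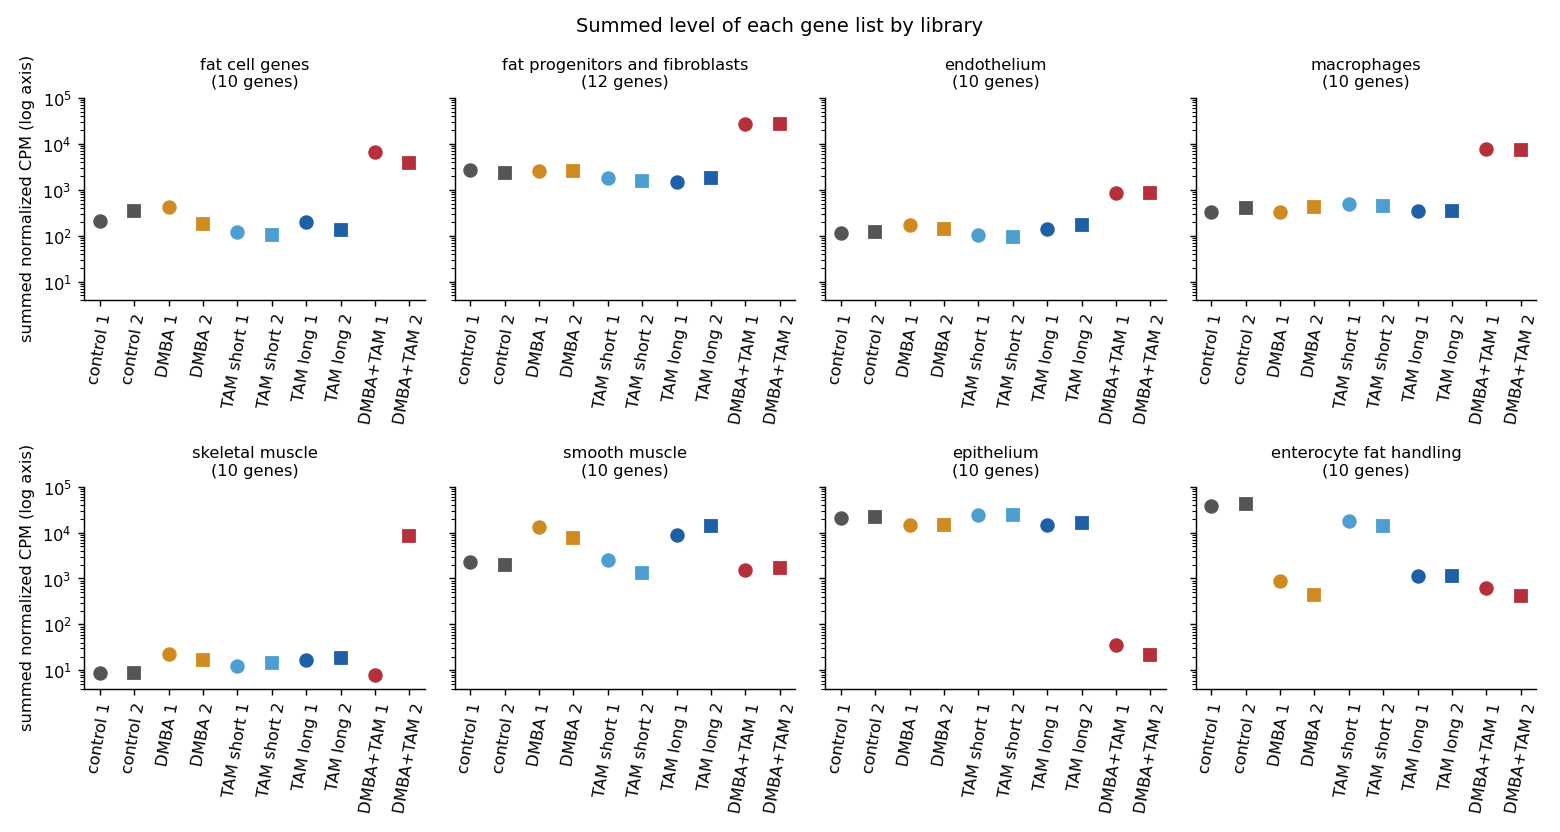
Summed normalized CPM of the 10 fat cell genes and of 7 other lists in each library on a log axis; circles are replicate 1 and squares replicate 2. Fat, fibroblast, endothelial and macrophage genes are highest in both DMBA+TAM libraries, skeletal muscle genes in DMBA+TAM 2 alone, at 8558, and epithelial genes are lowest in DMBA+TAM, at 34.8 and 21.1.

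The genes whose pattern was most like the mean of the 10 were ranked by Pearson's r on log2 normalized CPM over the 10 libraries. Glb1l2 (0.978), Thrsp (0.976), Abcd2 (0.973), Klhl36 (0.972) and Serpina3c (0.971) came first; Thrsp encodes a protein tied to lipid synthesis, and Abcd2 a peroxisomal fatty acid transporter. Over the 8 libraries without DMBA+TAM the order began with Cyp2e1 (0.947), Zfp524 (0.94) and Glb1l2 (0.929). Glb1l2 and Thrsp were among the first 10 in both rankings.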

How the data were processed

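A single deposited table was used. The authors mapped reads of poly-A RNA to GRCm38.p6 with TopHat 2.0.12, and counted reads per gene with HTSeq 0.6.1; the deposited counts are not normalized. The deposited FPKM values use the authors' own gene lengths, which differ from the length listed in the same table for most genes. The authors' listed length, and their fold changes and adjusted p-values, were not used.

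The test, run on counts of all 10 libraries in R 4.3.3, was that of edgeR 4.0.16 (filter by filterByExpr with groups, TMM scaling, a mean for each of 5 groups, quasi-likelihood F-test, Benjamini-Hochberg adjustment over 16179 genes, threshold 0.05). Exact permutation of 2 against 2 libraries cannot go below p = 0.333, so the spread was estimated across all genes and groups. Of 47074 lines, 5 were parts of split lines without counts. Normalized CPM used TMM totals. The standard error (SE) of a log2 fold change was derived from the test, as its absolute value divided by the square root of F. Exact 95% intervals and the floor of 3 counts cover counting error only; library totals were 1592366 to 10923673. Other settings tried were library-size scaling, DESeq2 1.42.0, fits of the compared groups alone, no filter on low counts, replicate numbers as a block, limma 3.58.1 on log2(FPKM + 1) and log2(FPKM + 0.1), counts thinned to 1592366, and each library left out. Of these steps, only the edgeR fit was tried on simulated counts, with 4-fold changes in DMBA+TAM and the same spread for all genes. The simulation did not copy the spread between these replicates. Python 3.11.15, pandas 2.3.3, SciPy 1.17.1 and matplotlib 3.10.9 made tables and figures.

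The 10 genes and all lists were chosen with earlier results of these data known. Named genes were the 10 in every comparison, and up to 3 of each other list with the largest change in DMBA+TAM against control among genes past the threshold with a mean of at least 50 counts; Cebpd was absent from the table. Ucp1, Elovl3, Cpt1b, Msln and Dpp4 are given for the list counts they belong to, Dpp4 after its values were seen. Orm1, Ebf2, Cox8b and Dio2 were also added after their values were seen. Promoter windows, 250 bases before each start, came from RefSeq (GRCm38.p6); positions are those of the deposited table.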

Additional observations from a re-analysis of the deposited data

Results flagged for a closer look

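The difference between DMBA+TAM and DMBA was unlike that between TAM long and control for 9 of the 10 genes, by an interaction term in the edgeR fit, (DMBA+TAM minus DMBA) minus (TAM long minus control), which was added after the data were seen; 48.2% of all genes tested passed. The difference of log2 fold changes was 5.65 for Adipoq (adjusted p = 0.00471), 4.74 for Car3 (0.00803), 5.45 for Retn (0.00312), 5.13 for Plin1 (0.0179), 5.86 for Cfd (0.00275) and 4.32 for Fabp4 (0.00029). For Lipe it was 6.51 (5.33e-06) and for Cidec 7.97 (1.31e-05); both fell with TAM long against control (-3.86 and -4.1) and were higher in DMBA+TAM than in DMBA (2.65 and 3.86). Pparg had the opposite sign, at -4.07 (0.000272), with 2.36 in TAM long against control and -1.71 in DMBA+TAM against DMBA. For Lep the term could not be estimated, since its counts were at most 2 in 3 of the 4 groups. The interaction rests on the DMBA+TAM libraries, which were nearly without epithelial transcripts, and the treatment and these libraries cannot be told apart. TAM long and control also differ in the letter of their titles (DSS_L and NS), so the term is not one of the treatments alone.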

How the results depend on the processing

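The 6 genes other than Lep called higher in DMBA+TAM against control kept direction and call in the 12 alternatives of each; Lep passed the filter through DMBA+TAM alone and bears on no such statement. The count of calls among the 10, Lep included here and below, was 7 or 8. Against DMBA and against TAM long it was 10 in the alternatives run, except 9 against DMBA without DMBA+TAM replicate 2. In DMBA against control, 6 calls became 3 with DESeq2 and 3 with only the groups compared, 4 with the replicate block, 8 by library size, 9 with no filter on low counts, and 3 to 8 with a library left out. In DMBA+TAM against TAM short, 8 became 9 or 10 in the 8 alternatives that kept all libraries. In TAM long against control, 3 became 6 with no filter on low counts and 4, with Cfd lower, without control replicate 1. In TAM short against control, 1 became 6 with no filter, 4 with only the groups compared, 2 with the replicate block, and 0 to 1 with a library left out. The fit with no filter on low counts often gave far smaller adjusted p-values than the main fit at nearly the same log2 fold change. The cause of these changes was not tested. A lone library left in a group was assumed to vary like the other groups.

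The log2 fold changes that changed sign belonged to genes that did not pass. In DMBA+TAM against control, Lipe (-0.23) was 0.27 by library size, 0.23 and 0.24 by limma on log2(FPKM + 1) and log2(FPKM + 0.1), 0.06 after thinning and -0.61 to 0.04 with a library left out, and Pparg (0.11) was -0.8 to 0.68. In TAM long against control, leaving out a library gave -3.42 to 1.76 for Adipoq, -1.23 to 2.05 for Car3, -1.48 to 2.34 for Retn, -2.48 to 1.22 for Plin1, -2.12 to 1.53 for Cfd and -0.01 to 0.66 for Fabp4; limma gave 0.42 and 0.56 for Car3 and 0.36 for Retn at the smaller pseudocount, and thinning 0.3 for Retn. In TAM short against control, leaving out a library gave -1.7 to 2.04 for Adipoq, -1.54 to 1.74 for Car3, -1.2 to 2.62 for Retn, -0.53 to 3.17 for Plin1 and -2.21 to 1.44 for Cfd; limma gave 0.17 for Adipoq, 0.05 and 0.17 for Car3, and 0.02 and 0.42 for Retn, and thinning 0.47 for Retn and -0.07 for Plin1.

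Replicate numbers did not pair the samples: the correlation of replicate differences between groups ran from -0.0414 to 0.26. The block ended the calls of Car3 (adjusted p = 0.0718) and Cfd (0.0648) in DMBA against control. With the replicate block, 10219 genes were called in DMBA+TAM against control in place of 10396. Scaling by library size moved the median log2 fold change of all genes in that comparison from -0.17 to 0.31, and the counts of other lists by at most 1 gene in each direction. Depth limits low genes most in DMBA+TAM, where 3 counts are worth 1.58 and 1.32 normalized CPM.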
